A study of Mus musculus with 45 samples.

Results

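The cytosolic ribosomal protein genes and their paralogs were followed through the reprogramming of mouse neural progenitor cells to induced pluripotent stem cells. Members were every gene symbol made of Rpl or Rps followed by a number with optional letters, plus Rplp0, Rplp1, Rplp2 and Rpsa, with pseudogene names ending in -ps and the 10 Rps6k kinase rows left out. The rule gave 93 of the 23575 rows of the gene table. Of these, 31 encode small-subunit proteins, 43 encode large-subunit proteins, 3 encode the stalk proteins and 15 are paralogs or retrotransposed copies. The remaining symbol is Rps19bp1, which encodes a protein that binds a ribosomal protein and is not part of the ribosome. The annotation (GENCODE M21) types 7 of the 15 paralogs or copies as pseudogenes, namely Rpl37rt, Rps4l, Rps12l1, Rpl32l, Rpl6l, Rps3a3 and Rps3a2.

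The study sequenced full-length cDNA on nanopores in 45 libraries, 22 by direct cDNA from poly(A)-enriched RNA on R9 flow cells and 23 by PCR cDNA from total RNA on R10 flow cells. The starting cells were neural progenitor cells (NPCs) derived from an embryonic stem cell line with an Oct4-GFP reporter, called O4G. They were wild type (WT) or stably transfected with a doxycycline-inducible cassette named OKMS or OKS for the factors Oct4, Klf4 and Sox2 with or without Myc. The transfected lines all carry the genotype suffix Luciferase-AS, so every OKMS and OKS library named here shares it. NPCs were kept in NPC medium. Reprogramming was in serum with leukaemia inhibitory factor and doxycycline (FBS-LIF + dox) up to day 20 in R9 and day 18 in R10. A later stage used 2i-LIF, which contains inhibitors of GSK3 and MEK, and in R9 the switch was at day 6. The comparison cells were embryonic stem cells (ESCs) of the lines O4G, R1 and R1-Clone3, all WT and grown in 2i-LIF. Non-reprogramming controls were WT cells put in FBS-LIF + dox for 2 days. Each OKMS or OKS condition had 1 library per day and chemistry, and no label says that numbered libraries came from separate cultures, so p-values measure the spread between these libraries, which may be technical.

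Ribosomal proteins assemble with ribosomal RNA into the small and large subunits of the cytosolic ribosome, and most are needed in equal number. Many of their mRNAs start with a run of pyrimidines, which places their translation under control of growth signalling, and Myc is known as an activator of ribosomal protein and ribosome assembly genes. A few members have paralogs, often intronless copies, that are transcribed in restricted cell types. Rpl10l, an intronless copy of the X-linked gene Rpl10, and Rpl39l, a spliced paralog of the X-linked gene Rpl39, are best known from male germ cells.

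Windows of 30 bases around the RefSeq transcription start (20 before the start and 10 from it) are shown for the stalk gene Rplp2, for Rpl13a and for Rpl22l1, chosen as members with a pyrimidine run, and for both X-linked parents beside their copies, because the copies gave far larger differences than their parents. Capitals mark an unbroken run of at least 8 C or T bases within 10 bases of the start. All are read on the strand of the gene, in build GRCm38.p6.
Rplp2 (chr7:141447631-141447660, +): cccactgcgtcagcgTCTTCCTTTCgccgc
Rpl22l1 (chr3:28805488-28805517, +): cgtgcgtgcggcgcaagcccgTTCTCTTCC
Rpl13a (chr7:45128736-45128765, -): gataagaaaccctgcgacaagaCCTCCTCC
Rpl39 (chrX:37085213-37085242, -): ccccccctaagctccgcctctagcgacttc
Rpl39l (chr16:10170208-10170237, +): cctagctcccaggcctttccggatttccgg
Rpl10 (chrX:74270796-74270825, +): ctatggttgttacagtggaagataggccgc
Rpl10l (chr12:66284392-66284421, -): agaaatttggcctccattttgcggctggcg
Of the 93 members, 68 had a start in the RefSeq table, and 22 of them (32.4%) held such a run within 10 bases of it, against 8.71% of 27025 gene symbols. With genes of a single listed start, the shares were 31.0% of 58 members and 7.17% of 22862 symbols. Within 10 bases of the start, the longest run was of 7 bases in Rpl39l, 5 in Rpl39 and Rpl10l and 2 in Rpl10, so none of these 4 genes reached 8 there, and the run of 8 that opens the Rpl39 window lies farther from the start. A run is a description of these letters and not a test of translation.

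The second sequence feature concerns Rps24, a small-subunit gene on the plus strand of chr14 whose mRNAs differ at the 3′ end of the coding sequence. The classes are set by what lies between the exon that ends at chr14:24493493 and the last exon, which starts at chr14:24495775 (mm10). The 20-base exon at chr14:24495430-24495449 is in capitals between 5 bases of each neighbouring exon, and in the annotated coding transcripts that hold it without the exon described next the stop codon is on its first 3 bases.
20-base exon: aaaagTGAGTGGAGATTGGATACAGccaaa
A further exon at chr14:24494052-24494069 holds 18 bases, in capitals after 5 bases of the exon before it. In the annotated coding transcript with this exon, which also holds the 20-base exon further on, the stop codon lies at chr14:24494055-24494057, inside the 18-base exon.
18-base exon: aaaagAAATGAAATACCTAGCAG
The 36-base form of the same exon runs on to chr14:24494087, and the bases it adds are in capitals after the end of the shorter form.
36-base exon, end: cctagcagGTACTGCCATTGGGCACG
The annotated coding transcript that joins the outer exons directly has its stop codon at chr14:24495784-24495786 in the last exon. The annotated stop codon thus differs between these 3 transcripts. In the classes below, a transcript with more than 1 of these exons counts under no class.

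Expression was deposited as CPM, reads scaled to a common library total, which returned whole reads for 100.0% of the values above 0, and libraries held 447990 to 1390424 reads in R9 and 566599 to 4236442 in R10. In R10 ESCs the 8 pluripotency markers summed to between 11275 and 13758 CPM against 55.7 to 61.9 CPM in NPCs, and the 8 neural progenitor markers to between 5.71 and 43.3 CPM against 5129 to 6750, so both cell types carried their defining markers. The R10 libraries fell into 2 sets. The day 18 libraries and 6 of the 7 ESC libraries are labelled with a library name, and all NPC libraries and a single R1 ESC library without a replicate number are not. The 6 named ESC libraries held 1.81 to 2.35% mitochondrial reads and the unnumbered R1 library held 0.124%. In R10 the library set therefore cannot be told apart from the cell state except through the unnumbered R1 library, whose values are given beside the results that rest on the others. The 121 pseudogene rows ending in -ps took 0.63 to 2.89% of all reads, and reads of near-identical copies such as Rps3a1, Rps3a2 and Rps3a3, or Rps27, Rps27rt and Rps27l, could be split among them by the counting, so values of single copies are uncertain.

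The 93 members together took 2.35 to 12.3% of all gene reads, depending on the condition. In R10, ESCs stood at 7.71% ± 0.161 (SD, n = 7) and NPCs at 6.13% ± 0.547 (SD, n = 4), and the ranges of 7.57 to 7.99% and 5.64 to 6.77% did not overlap. The NPC group pooled 2 WT libraries, at 6.39 and 6.77%, with the uninduced OKMS and OKS lines, at 5.64 and 5.70%. The lowest shares were in cells moved to FBS-LIF + dox without the Myc cassette. WT cells at day 2 held 2.35% and 3.18% in R10 and 2.72% in R9, and OKS cells held 2.72% and 3.06% at days 2 and 6 in R10. OKMS cells of the same days held 5.43% and 8.01%, and 12.3% at day 18. In bulk RNA, fewer cells of a type and less RNA per cell cannot be told apart, so a share describes the culture. In R9 the same order appeared, with NPCs at 6.19% ± 0.827 (SD, n = 4) and the 2 ESC libraries at 7.53% and 8.12%.

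**Figure D1:**
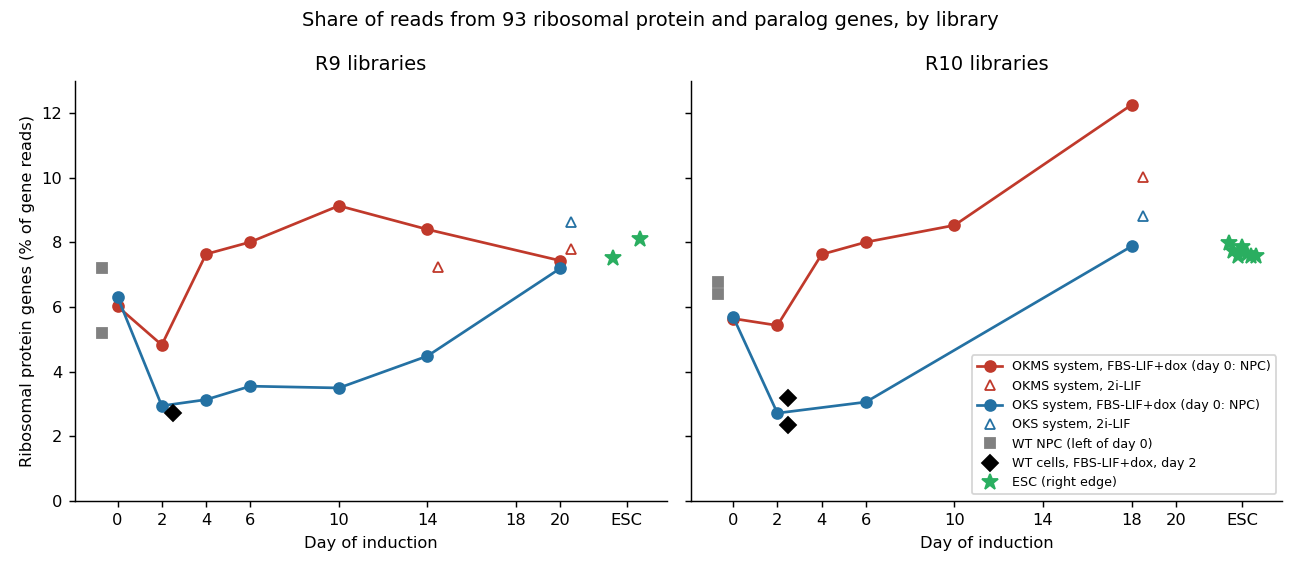
Percent of all gene reads taken by the 93 members in every library, by day of induction on the horizontal axis, with R9 and R10 in separate panels. Lines join OKMS (red) and OKS (blue) libraries in serum, open triangles are 2i-LIF, squares WT NPCs, diamonds WT cells at day 2 and stars ESCs. The OKS serum libraries lie between 2.72 and 3.55% from day 2 to day 10, under the OKMS libraries of the same days.

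The first step of reprogramming, the move to serum and doxycycline, was measured without factors in WT cells, 2 libraries against 2 WT NPC libraries in R10. Ribosomal protein mRNAs fell in all 3 structural groups. With limma and Benjamini-Hochberg adjustment over all 14688 genes, 65 of 88 members tested fell and 0 rose, against 13.1% and 15.6% of all genes, and 60 fell at least 2-fold, against 11.9%. The median log2 difference was -1.41 for the members and 0.12 for all genes. The groups did not overlap for 84 members, all lower in the treated cells, against 31.1% of all genes lower and 36.5% higher. The 65 that fell were 35 of 43 large-subunit genes, 21 of 31 small-subunit genes, all 3 stalk genes, 5 of 10 paralogs or copies tested and Rps19bp1.

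Rpl13, a large-subunit protein, was at 114 and 141 CPM in WT NPCs and 19.2 and 21.4 CPM at day 2, a log2 difference of -2.58 ± 0.24 (SE; adjusted p = 0.00263, limma). Rpl37, another large-subunit protein, was at 99.1 and 99.6 CPM and then 15.8 and 17.2 CPM (-2.52 ± 0.23, adjusted p = 0.00256, limma). The groups did not overlap for either gene, and the only WT day 2 library of R9 was also low, at 17.0 CPM for Rpl13 and 12.7 for Rpl37. Rps27a, which encodes a small-subunit protein fused to ubiquitin, was at 311 and 316 CPM and then 56.4 and 80.4 CPM (-2.20 ± 0.24, adjusted p = 0.00363, limma). Rps3a1 was also among the 5 largest falls, at 35.6 and 51.1 CPM in NPCs and 2.96 and 14.1 CPM at day 2 (-2.50 ± 0.66, adjusted p = 0.0399, limma). Its day 2 libraries were less alike than those of Rpl13, Rpl37 and Rps27a, and its reads could be split with those of its copies.

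The stalk proteins recruit elongation factors to the ribosome, and Rplp2 (-1.76 ± 0.27, adjusted p = 0.00851, limma) fell, as did Rplp0 and Rplp1, both at -1.21 on the log2 scale. Rpsa, a small-subunit protein that is also the laminin receptor, fell by 1.98 on the log2 scale (adjusted p = 0.00585, limma). Rpl22 and its paralog Rpl22l1 both fell, with Rpl22 at -1.44 (adjusted p = 0.0148, limma) and Rpl22l1 at -1.13 (adjusted p = 0.0199, limma). Rpl22l1 was at 63.1 and 74.6 CPM in WT NPCs and at 29.8 and 32.0 CPM at day 2. Genes fixed by name outside the rule moved alongside. The ribosomal proteins Fau and Rack1 fell, as did 22 of 24 genes for ribosomal RNA synthesis and processing, 7 of 14 translation factors and 20 of 78 mitochondrial ribosomal proteins, against the 13.1% of all genes, and 1 other of the last list rose. The 4 astrocyte markers summed to 42.6 and 93.3 CPM in WT NPCs and 1188 and 3057 CPM at day 2. Most of this was Gfap, at 5.16 and 5.72 CPM and then 1056 and 3015 CPM, and Aqp4 went from 0 to 19.6 and 37.6 CPM. S100b, at 31.1 and 86.4 CPM and then 18.4 and 92.9 CPM, and Aldh1l1, at 1.72 and 5.72 CPM and then 1.98 and 3.13 CPM, overlapped between the groups. Myc stood at 138 and 211 CPM and then at 5.87 and 14.8 CPM. Their part in the fall was not tested. With 2 libraries against 2, leaving any library out left 0 to 13 members past the threshold, while the median stayed negative in each case.

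Adding factors with the medium held the same was tested with the OKMS and OKS day 2 libraries against the 2 WT day 2 libraries in R10. None (0) of 89 members passed (limma, Benjamini-Hochberg), against 0.714% of all genes that rose and 0.026% that fell, 6 members had an unadjusted p under 0.05, against 15.2% of all genes, edgeR called 0 and DESeq2 called 2, against 3.01%. Both systems were above both WT libraries for 17 members and below them for 2, against 28.8% and 18.3% of all genes. The 2 systems did not act as replicates here. Rpl37 was at 90.1 CPM in OKMS and 21.6 CPM in OKS, against 15.8 and 17.2 CPM in WT, and Rpl13 was at 156 CPM and 35.5 CPM against 19.2 and 21.4 CPM. The OKS library was near the WT libraries for both genes and the OKMS library was high. Before induction, the OKMS and OKS NPCs against WT NPCs gave 1 member of 89 that fell and 0 that rose (limma), against 0.2% and 1.78% of all genes. The member was the stalk gene Rplp1, at 391 and 414 CPM against 801 and 858 CPM (-1.04 ± 0.12, adjusted p = 0.0057, limma). Under quantile normalization, and without either transfected line, 0 members passed. The transfected lines were lower than both WT libraries for 60 members and higher for 3, against 20.1% and 31.1% of all genes, with a median of -0.28 for the members and 0.05 for all genes. Mitochondrial reads were at 1.08 and 1.11% in the transfected NPC libraries and 0.153 and 0.272% in the WT ones. Their part in the difference was not tested.

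The systems with and without Myc were compared day by day in FBS-LIF + dox. Ribosomal protein mRNAs were higher in OKMS than in OKS in every structural group in R9. With day as a block over the 6 R9 pairs (days 2, 4, 6, 10, 14 and 20), 79 of 89 members were called higher and 0 lower (limma, Benjamini-Hochberg), against 12.3% and 15.7% of all genes, and 47 were called higher by at least 2-fold, against 6.93%. All 89 had a positive difference, against 44.6% of all genes, with a median log2 of 1.03 against -0.11 for all genes. By role, 28 of 31 small-subunit genes, 40 of 43 large-subunit genes, all 3 stalk genes, 7 of 11 paralogs or copies tested and Rps19bp1 passed. Without the block for day, 0 members passed.

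In R9 the separation was present by day 2 and small at day 20. The share of reads taken by the members was 0.953 times as high in OKMS as in OKS among uninduced NPCs in R9, then 1.64, 2.44, 2.26, 2.61, 1.87 and 1.03 times as high on days 2, 4, 6, 10, 14 and 20. In R10 the ratios were 0.990 in NPCs and 2.00, 2.62 and 1.56 on days 2, 6 and 18. In R9, 51 of 89 members with at least 1 CPM were higher in OKMS among NPCs, 86 of 90 at day 2, 91 of 92 at day 10 and 62 of 92 at day 20, against 48.6, 48.8, 49.9 and 45.9% of all genes with at least 1 CPM. The median member difference was 1.31 at day 6 and 0.20 at day 20 on the log2 scale, with all genes at -0.03 and -0.10. On all 6 days the same direction was seen for 55 of 89 members, against 9.74% of all genes.

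Rpl35a, a large-subunit protein, was at 113, 104, 121, 120, 150 and 241 CPM in OKMS on R9 days 2 to 20 and at 22.7, 35.3, 18.7, 29.0, 58.7 and 129 CPM in OKS, a log2 difference of 1.78 ± 0.23 (adjusted p = 0.000811, limma). Rpl37 was at 98.3, 79.3, 65.5, 53.4, 114 and 177 CPM in OKMS and 16.0, 19.1, 16.1, 17.8, 37.2 and 98.4 CPM in OKS (1.74 ± 0.23, adjusted p = 0.000811, limma). Both genes were higher in OKMS on every day, and the OKS level of days 2 to 10 was near that of WT cells at day 2, at 24.1 CPM for Rpl35a and 12.7 CPM for Rpl37. In the small subunit, Rps27a was at 171, 196, 210, 162, 318 and 499 CPM against 46.8, 51.5, 46.9, 58.0, 107 and 349 CPM (1.57 ± 0.20, adjusted p = 0.000811, limma). Rps3a1 (1.64 ± 0.30, adjusted p = 0.00231, limma) was also among the 5 largest differences that passed. The stalk gene Rplp0 was at 191, 284, 261, 242, 386 and 501 CPM in OKMS and 98.9, 89.6, 114, 120, 144 and 302 CPM in OKS (1.15 ± 0.16, adjusted p = 0.000957, limma). Rplp2 (1.08) and Rplp1 (0.65) passed as well (limma, adjusted p = 0.00307 and 0.029), and Rplp1 had the smallest difference of the 3.

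The 10 members that did not pass were 4 copies (Rpl22l1, Rpl39l, Rps27rt and Rps3a2), the small-subunit genes Rps13, Rps24 and Rps27, and the large-subunit genes Rpl7a, Rpl19 and Rpl29. Rps24, at 0.57 ± 0.20 (adjusted p = 0.0542, limma), and Rpl22l1, at 0.46 ± 0.21 (adjusted p = 0.115, limma), were among them, and Rpl22, the parent of the latter, passed at 0.95 (adjusted p = 0.0127, limma). Rps27 was at 0.45 ± 0.29 (adjusted p = 0.267, limma). Rps4l passed at 1.94 ± 0.66 (adjusted p = 0.0414, limma), and at day 14 it stood at 460 CPM in OKMS and 31.4 CPM in OKS. Among the other genes fixed by name, 23 of 24 for ribosomal RNA synthesis and processing were called higher, as were 9 of 14 translation factors, 34 of 78 mitochondrial ribosomal proteins (1 was lower) and Fau and Rack1, against the 12.3% of all genes. TPM, the deposited transcript unit, is per length: TPM times length gave whole multiples of a single unit in 100% of low values (under 20 units) in every library, so short transcripts weigh more in TPM than in reads. The share of TPM in other transcripts under 1000 bases was 56.6 to 63.5% in OKMS and 54.9 to 61.5% in OKS, and the astrocyte markers summed to 162, 6.26, 13.6, 7.03, 6.33 and 3.69 CPM in OKMS and 290.1, 88.7, 64.3, 82.5, 33.1 and 5.75 CPM in OKS on days 2, 4, 6, 10, 14 and 20. Their part in the difference was not tested. Reads named Myc stood at 15.5 to 93.6 CPM in OKMS and 20.1 to 58.0 CPM in OKS, and the table does not separate the cassette from the endogenous gene.

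In R10, with 3 pairs, 88 of 89 members were positive, against 40.1% of all genes, with a median of 1.08 against -0.19 for all genes, but 0 members passed (limma), against 0.0% of all genes. At an unadjusted p under 0.05 there were 52 members, against 15.8% of all genes, edgeR called 0 and DESeq2 called 21, against 2.31%. Without the day 18 pair, 43 members passed, all higher, against 2.93% of all genes. On all 3 days 56 of 89 members were higher in OKMS, against 12.9% of all genes. Other transcripts under 1000 bases took 61.2 to 63.2% of TPM in OKMS on days 2 to 10 and 56.6 and 57.2% in OKS on days 2 and 6. The astrocyte markers summed to 164, 5.30 and 14.8 CPM in OKMS and 633, 185 and 11.5 CPM in OKS on days 2, 6 and 18. Their part in the R10 difference was not tested. Rpl22l1 was at 141, 182 and 191 CPM in OKMS on days 2, 6 and 18 and 51.1, 68.3 and 87.1 CPM in OKS (1.33 ± 0.31, adjusted p = 0.235, limma). Its values did not overlap between the systems, nor did those of several other members, Rpl36, Rpl39, Rplp1 and Rps10 among them. The share of all genes without overlap was not counted here. In a test of the difference between chemistries, 0 of 90 members and 0 of 14218 genes passed.

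**Figure D2:**
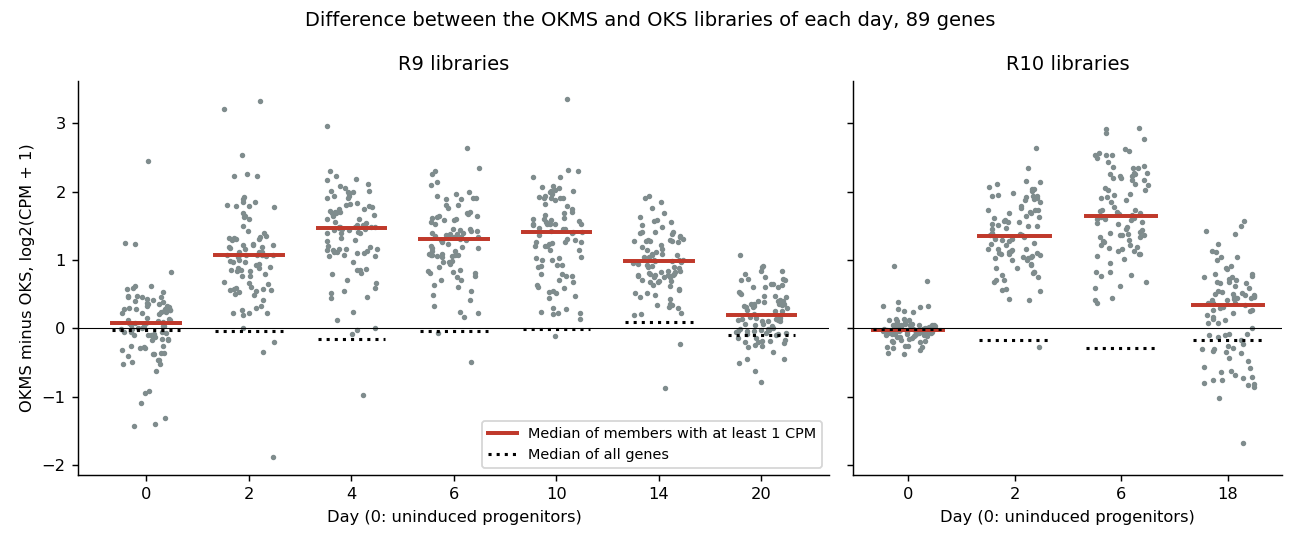
Difference in log2(CPM + 1) of OKMS minus OKS by day in R9 and R10, with a point for each of 89 members (Rpl10l, Rpl39l, Rps4l and Rpl3l are not drawn), a red line at the median of members with at least 1 CPM and a dotted line at the median of all genes. In R9 the member median was 1.07 at day 2, 1.41 at day 10 and 0.20 at day 20.

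Over the days shared by both systems, the median member lay first below and later above its NPC level when both were fitted together. The systems went apart on the way. In R9 the members took 6.02% of reads in OKMS NPCs and 4.83, 7.64, 8.01, 9.14, 8.40 and 7.44% on days 2 to 20, so OKMS lay above its NPC share from day 4. OKS NPCs stood at 6.32%, and the later OKS libraries at 2.94, 3.13, 3.55, 3.49, 4.48 and 7.20%, below it until day 14. In R9, in a fit with a term for OKMS or OKS, the median difference from uninduced NPCs was -0.63 at day 2, -0.37 at day 4, -0.38 at day 6, -0.37 at day 10, -0.01 at day 14 and 0.45 at day 20, when 83 of 93 members were above their NPC level, against 49% of all genes. Medians for all genes lay between 0 and 0.03. Few single members passed the F test, 6 that rose and 2 that fell of 93 (limma, Benjamini-Hochberg), against 5.56% and 5.28% of all genes. In the tests over days, rose and fell give the sign of a gene's largest day difference and do not describe its whole course. The risers were the copies Rps4l, Rpl39l and Rpl10l, described below with the paralogs (Rpl10l had 0 reads up to day 6 and entered the test through later libraries), and Rps27a, Rpl7l1 (1.26, adjusted p = 0.045, limma) and Rpl28 (1.10, adjusted p = 0.0416, limma), each with its largest difference at day 20. Rps27a was at 499 and 349 CPM at day 20 in OKMS and OKS against 180 and 153 CPM in their NPCs (adjusted p = 0.0299, limma). On days 2 to 10 it lay below its NPC level, by differences of -0.89 to -0.72. The 2 that fell were large-subunit genes. Rpl35 was at 47.5 and 9.36 CPM at day 2 against 87.5 and 72.5 CPM (-1.85, adjusted p = 0.041, limma), and Rpl23a was at 8.44 and 4.46 CPM at day 10 against 28.3 and 20.2 CPM (-1.80, adjusted p = 0.0449, limma). By day 20 both lay above their NPC level, with differences of 0.24 for Rpl35 and 0.45 for Rpl23a. Without day 20, 0 members passed, and the settings tried ranged up to 49 members with edgeR, against 24.8% of all genes.

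In R10 the medians were -0.50 at day 2, 0.20 at day 4, -0.19 at day 6, -0.13 at day 10 and 0.64 at day 18, with OKMS alone on days 4 and 10. Here 3 of 92 members rose and 0 fell, against 1.36% and 0.681% of all genes, namely Rpl39l (6.31), Rpl10l (5.48) and Rps4l (5.46), all largest at day 18. Rpl39l and Rpl10l had 0 reads in every OKMS and OKS library of R10 up to day 6 and entered the test through days 10 and 18, so their differences are a description, and Rps4l had an adjusted p of 0.0318 (limma). At a pseudocount of 0.25, with no filter on low values, without day 2 and without day 18, 0 members passed. The stalk gene Rplp2 and the small-subunit gene Rps7 had large differences at day 18 of 2.85 and 3.05 that did not pass (adjusted p = 0.0568 and 0.0781, limma). Rplp2 stood at 2950 and 1852 CPM at day 18 against 321 and 325 CPM in the NPCs, and at 378 and 397 CPM at day 20 in R9. The day 18 libraries belong to the named set, and no earlier day does. Other transcripts under 1000 bases took 76.1 and 73.0% of TPM at day 18 and 63.1 to 65.9% in NPCs, and their part in the rise was not tested.

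Both ends of the path were compared directly as ESCs against NPCs. In both chemistries the NPC group pooled WT libraries with the uninduced OKMS and OKS lines, so it mixes genotypes. In R10, 48 of 92 members rose and 7 fell (limma, Benjamini-Hochberg), against 34.7% and 34.6% of all genes, with a median log2 difference of 0.36 against 0.01. Only 12 rose at least 2-fold, against 22.4%. The risers include Rpl10l, Rpl39l and Rpl3l, which were under 1 CPM in every NPC library and entered the test through the ESCs. In R9, 28 of 93 rose and 0 fell, against 21.5% and 21.9%, with a median of 0.30 against -0.07. Without the O4G ESC library 12 rose, against 13.4%, and without the R1 library 13. Of 92 members tested in both chemistries, 23 passed as higher in both, against 19.8% of the genes tested in both. Both counts, 28 and 23, include Rpl10l, Rpl39l, Rps4l and Rpl3l. These copies were low or absent in NPCs, and Rpl10l and Rpl3l had 0 reads there and entered the test through the ESCs. When each library was centred on its median gene, R10 gave 66 higher and 3 lower, against 41.7% and 28.4% of all genes. The groups did not overlap for 34 members that were higher in ESCs and 2 that were lower in R10, against 24.9% and 26.0% of all genes, and for 42 and 3 in R9, against 28.7% and 28.1%.

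With the unnumbered R1 library as the only ESC library, the spread comes from the NPC libraries and the lone library is assumed to vary like them. There 19 of 93 members passed, all higher, against 17.5% of all genes, and 16 of 90 without Rpl10l, Rpl39l and Rpl3l, a share near that of all genes. Of the members called with all ESCs, 46 of the 48 kept a positive difference and 2 of the 7 kept a negative one, against 94.5% and 94.7% of all genes called higher and lower. Of the small-subunit genes, 19 of 31 rose and 2 fell in R10 and 10 of 31 rose in R9, where 34.7% and 21.5% of all genes rose. Rps16 was at 98.7 to 123 CPM in R10 NPCs and 454 to 731 CPM in the named ESC libraries but 195 CPM in the unnumbered one (2.12 ± 0.27, adjusted p = 5.28e-06, limma). Against that library alone the difference was 0.77, and in R9 it was 0.89 (adjusted p = 0.0145, limma), so Rps16 was higher in ESCs each time, by less without the named libraries. Rps27a rose in R10 (0.73 ± 0.13, adjusted p = 0.000131, limma) and R9 (0.85 ± 0.13, adjusted p = 0.00242, limma), and against the unnumbered library alone the difference was 1.17. Rps3a2, a copy at 24.7 ± 3.17 CPM in NPCs (SD, n = 4) and 124 ± 51.0 in ESCs (SD, n = 7), was at 2.11 with all ESCs and at 0.09 against the unnumbered library. The 2 small-subunit genes that fell were Rps2 (-0.70, adjusted p = 0.0261, limma) and Rps4x (-0.53, adjusted p = 0.00138, limma). Rps2 was at 33.9 to 52.9 CPM in the named ESC libraries, 112 CPM in the unnumbered one and 64.1 to 105 CPM in NPCs, and without the named libraries its difference was 0.46.

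Of the large-subunit genes, 20 of 43 rose and 2 fell in R10 and 11 rose in R9, the last a share near the 21.5% of all genes. Rpl24 was at 20.7 to 27.9 CPM in R10 NPCs, 75.3 to 102 CPM in named ESC libraries and 53.8 CPM in the unnumbered one (1.78 ± 0.16, adjusted p = 1.27e-07, limma). Rpl9 was at 39.5 to 68.3 CPM and 123 to 213 CPM (1.50 ± 0.18, adjusted p = 2.22e-06, limma) and in R9 at 62.9 to 111 CPM and 176 and 223 CPM (1.28 ± 0.26, adjusted p = 0.00804, limma). In neither chemistry did the groups overlap for Rpl9. Rpl13 (0.99 in R10 and 1.38 in R9, adjusted p = 2.91e-05 and 0.00326, limma) and Rpl37 (0.89 and 1.19, adjusted p = 2.41e-05 and 0.00118, limma) rose in both. Rpl11, a protein known for binding Mdm2 when ribosome assembly is disturbed, fell in R10 from 69.1 to 96.9 CPM in NPCs to 34.1 to 63.1 CPM in ESCs (-0.71 ± 0.18, adjusted p = 0.00212, limma), with the unnumbered library the highest of the ESCs. Rpl13a (0.20, adjusted p = 0.106, limma) and Rpsa (0.15, adjusted p = 0.211, limma) did not pass in R10, and both missed the threshold in R9 as well.

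The stalk genes parted. Rplp2 was at 321 to 453 CPM in R10 NPCs and 869 to 1100 CPM in ESCs, the unnumbered library included at 931 CPM (1.38 ± 0.12, adjusted p = 7.24e-08, limma), and rose in R9 too (0.85 ± 0.12, adjusted p = 0.00173, limma). Rplp0 did not pass in either (-0.14 and -0.09, adjusted p = 0.487 and 0.652, limma). Rplp1 fell in R10 (-0.84 ± 0.32, adjusted p = 0.0279, limma) and rose in R9 (0.78 ± 0.21, adjusted p = 0.0228, limma). In R10 it was at 229 to 305 CPM in the named ESC libraries, 869 CPM in the unnumbered one and 391 to 858 CPM in NPCs. Against the unnumbered library alone the R10 difference was 0.59, and 5 of the 7 members that fell in R10 had no negative difference there. A test of R10 against R9 found 3 members of 92 with unequal differences, Rpl37rt (-1.54 ± 0.37, adjusted p = 0.0295, limma), Rps4x (-0.97 ± 0.24, adjusted p = 0.0311, limma) and Rps10 (-0.92 ± 0.24, adjusted p = 0.0408, limma), among 509 of 14197 genes, or 3.59%.

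Beside the members, 17 of 24 genes for ribosomal RNA synthesis and processing rose in R10 ESCs and 1 fell, and 18 rose in R9. Of 14 translation factors, 9 rose and 1 fell in R10 and 3 rose in R9. Mitochondrial ribosomal proteins were divided, with 28 of 78 higher and 15 lower in R10. Of all genes, 34.7% rose and 34.6% fell in R10 and 21.5% rose in R9, so the share of mitochondrial ribosomal proteins that rose was near that of all genes. The share of TPM in other transcripts under 1000 bases was 67.3 to 70.6% in R10 ESCs and 63.1 to 65.9% in NPCs, and its part in the differences was not tested.

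**Figure D3:**
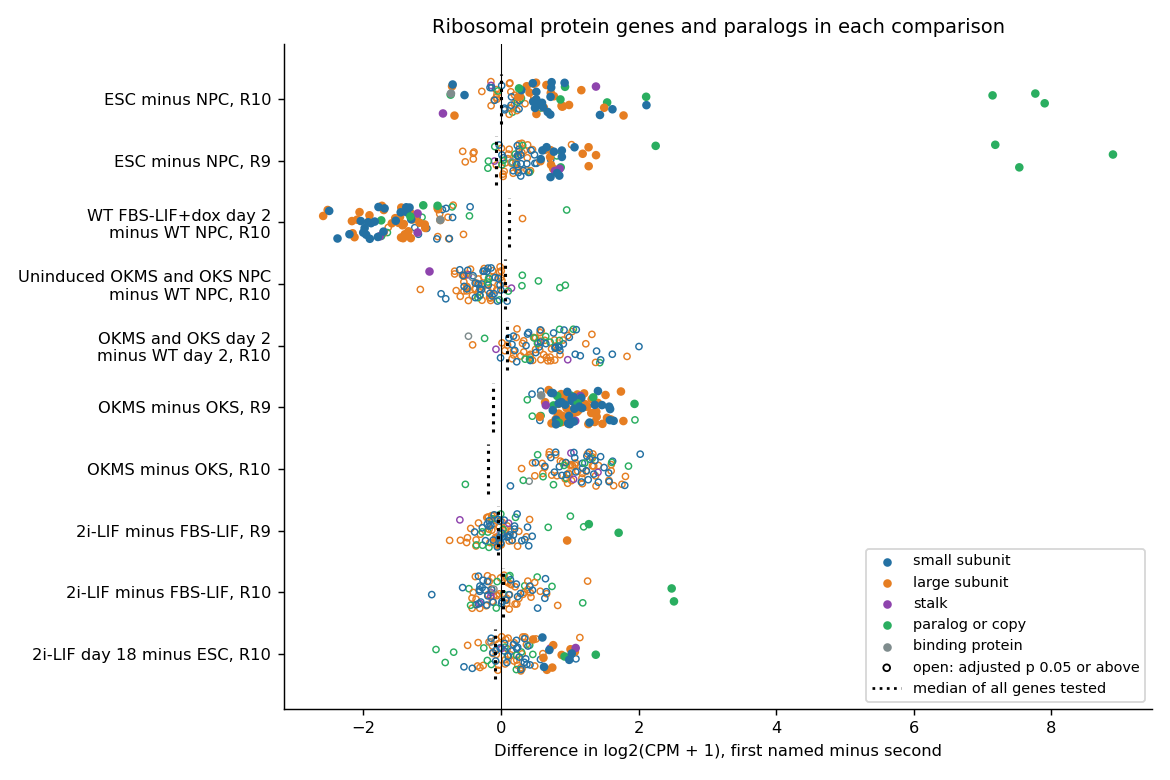
Difference in log2(CPM + 1) of every member tested in 10 comparisons, coloured by role, with filled points for members that passed and a dotted line at the median of all genes. The points of WT day 2 minus WT NPC lie to the left, with a member median of -1.41, and those of OKMS minus OKS to the right, at 1.03 in R9 and 1.08 in R10.

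The largest differences among the members between ESCs and NPCs were those of paralogs. Of 14 paralogs or copies tested in R10, 8 rose and 1 fell, against 34.7% and 34.6% of all genes. Of the 8, 4 were low or absent in NPCs, and Rpl10l, Rpl39l and Rpl3l among them entered the test through the ESCs. Rpl10l, the intronless copy of Rpl10, had 0 reads in all 8 NPC libraries. It was at 239 ± 16.7 CPM (SD, n = 7; range 212 to 268) in R10 ESCs, and at 169 and 201 CPM in R9. Against a floor of 3 reads over the NPC group, that was at least 846-fold higher in R10 and at least 192-fold higher in R9, a floor that covers counting error only. Rpl39l, the copy of Rpl39, had 3 reads over the 4 R10 NPC libraries (0 to 0.635 CPM) and 1 read over the 4 of R9, and was at 177 ± 56.2 CPM in R10 ESCs (SD, n = 7; range 108 to 289), with the unnumbered library highest. Rps4l, a copy of the X-linked Rps4x, was at 0.635 to 9.35 CPM in R10 NPCs and 947 ± 187 CPM in ESCs (SD, n = 7). On the log2(CPM + 1) scale the R10 differences were 7.90 for Rpl10l, 7.15 for Rpl39l and 7.77 for Rps4l, and 7.74, 7.91 and 8.07 against the unnumbered library alone. With NPC levels near 0 the added 1 holds these values down, so they are not fold changes. Rpl3l, a copy of Rpl3 known from muscle, was low even in ESCs, at 1.12 to 3.48 CPM or 44 reads over 7 libraries, with 0 reads in NPCs, at least 7.07-fold higher in R10 and at least 3.90-fold higher in R9.

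The parents of these copies moved in different directions in R10. Rpl39 was at 192 to 279 CPM in R10 ESCs and 238 to 262 CPM in NPCs (-0.15 ± 0.11, adjusted p = 0.263, limma), with overlapping groups. Rpl10 rose (0.48 ± 0.12, adjusted p = 0.00269, limma), Rps4x fell, as given above, and Rpl3 did not pass (0.48 ± 0.27, adjusted p = 0.127, limma). Rps4x was at 134 to 187 CPM in R10 ESCs and 193 to 243 CPM in NPCs, and in R9 its difference was 0.44 (adjusted p = 0.149, limma). Of the reads of each pair in R10 ESCs, Rpl39l took 43.1% ± 6.75, Rpl10l took 65.1% ± 1.81 and Rps4l took 85.7% ± 3.11 (SD, n = 7), against 0.0889%, 0% and 2.05% on average in NPCs. In R9 ESCs the shares were 45.2%, 64.2% and 80.7%. These shares count reads and are not corrected for length. On TPM, which divides by transcript length, Rpl39l took 78.4% ± 3.66, Rpl10l 31.4% ± 2.26 and Rps4l 70.9% ± 5.63 of the pair in R10 ESCs (SD, n = 7), so which gene of the pair was the larger differed between the units for Rpl39l and Rpl10l. Rps4l and Rps4x are near copies between which reads can be misplaced. It was not tested whether the units differ for these pairs by length alone or also in the reads they count.

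Of the other 10 paralogs or copies tested in R10, 4 rose, 1 fell and 5 did not pass, against 34.7% of all genes that rose and 34.6% that fell. The share of these copies that rose was thus near that of all genes. In R9 Rpl7l1 alone of 11 passed, as higher, against 21.5% of all genes higher and 21.9% lower. Rpl22l1 was at 53.8 to 82.7 CPM in R10 ESCs and 50.5 to 74.6 CPM in NPCs (0.17 ± 0.14, adjusted p = 0.304, limma), and took 2.91% and 2.84% of the reads of its pair with Rpl22. Rpl36al took 55.2% of the reads of its pair with Rpl36a in ESCs and 53.3% in NPCs. On TPM, Rpl36al was by far the larger, at a mean of 3736 against 127 in R10 ESCs and 3446 against 129 in R10 NPCs. The reads of this pair were near equal, so its TPM did not follow its reads. Whether the gene and transcript values count the same reads was not tested. Rps27l took 98.2% and 98.6% of the reads of its pair in ESCs and NPCs, and how reads of Rps27 copies were assigned was not tested. Rpl7l1, which acts in large-subunit assembly, rose from 169 to 189 CPM in NPCs to 293 to 388 CPM in ESCs (0.93 ± 0.10, adjusted p = 9.17e-07, limma) and also in R9 (0.87 ± 0.18, adjusted p = 0.009, limma). Rpl7 itself did not pass in R10 (0.23, adjusted p = 0.0989, limma). Beside Rps3a2, the copies Rps3a3 (0.26, adjusted p = 0.0399, limma) and Rps12l1 (0.87, adjusted p = 0.0143, limma) rose in R10 and Rpl37rt fell (-0.73, adjusted p = 0.00361, limma). For all 4 copies the groups overlapped. The unnumbered library held Rps3a2 at 26.1 CPM, Rps3a3 at 3339 and Rps12l1 at 6.72, each the lowest of the ESCs, and Rpl37rt at 70.6, the highest.

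Of the copies low in NPCs, Rpl39l, Rpl10l and Rps4l came on late along the path, and in R9 earlier in OKMS. Rpl3l took 0% of the reads of its pair with Rpl3 in the serum libraries of R10 day 18. In R9 OKMS cells Rpl39l was at 0 to 4.09 CPM up to day 6, then 39.4 CPM at day 10, 149 CPM at day 14 and 229 CPM at day 20. In OKS cells it was at 0 CPM at day 10, 7.44 CPM at day 14 and 108 CPM at day 20. Rpl10l had 0 reads in both systems up to day 6 and was at 14.1, 66.5 and 121 CPM in OKMS on days 10, 14 and 20, against 0, 6.62 and 81.2 CPM in OKS. Rpl39l and Rpl10l were thus ahead in OKMS on days 10 to 20 in these single libraries, although the difference of Rpl39l over the 6 days did not pass (1.95 ± 0.72, adjusted p = 0.058, limma) and Rpl10l had too few libraries above 1 CPM to be tested. In R10 OKMS, day 10 held 44.1 CPM of Rpl39l and 3.39 CPM of Rpl10l, with no OKS library of that day. At day 18 in R10, Rpl10l was at 41.5 CPM in OKMS and 46.1 CPM in OKS, Rps4l at 206 and 309.9 CPM and Rpl39l at 89.0 and 69.1 CPM, so the order seen in R9 did not hold for Rpl10l and Rps4l there. The order of libraries by Rpl39l was compared only with members, other genes of ribosomes and translation and mitochondrial ribosomal proteins. Pluripotency markers were not compared. The most alike over the 23 R10 libraries were Rpl10l (Spearman 0.891, and 0.927 over 22 R9 libraries), the mitochondrial ribosomal gene Mrps16 (0.851 and 0.748) and Rpl9 (0.812 and 0.822). This is a description over libraries that share lines and days.

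**Figure D4:**
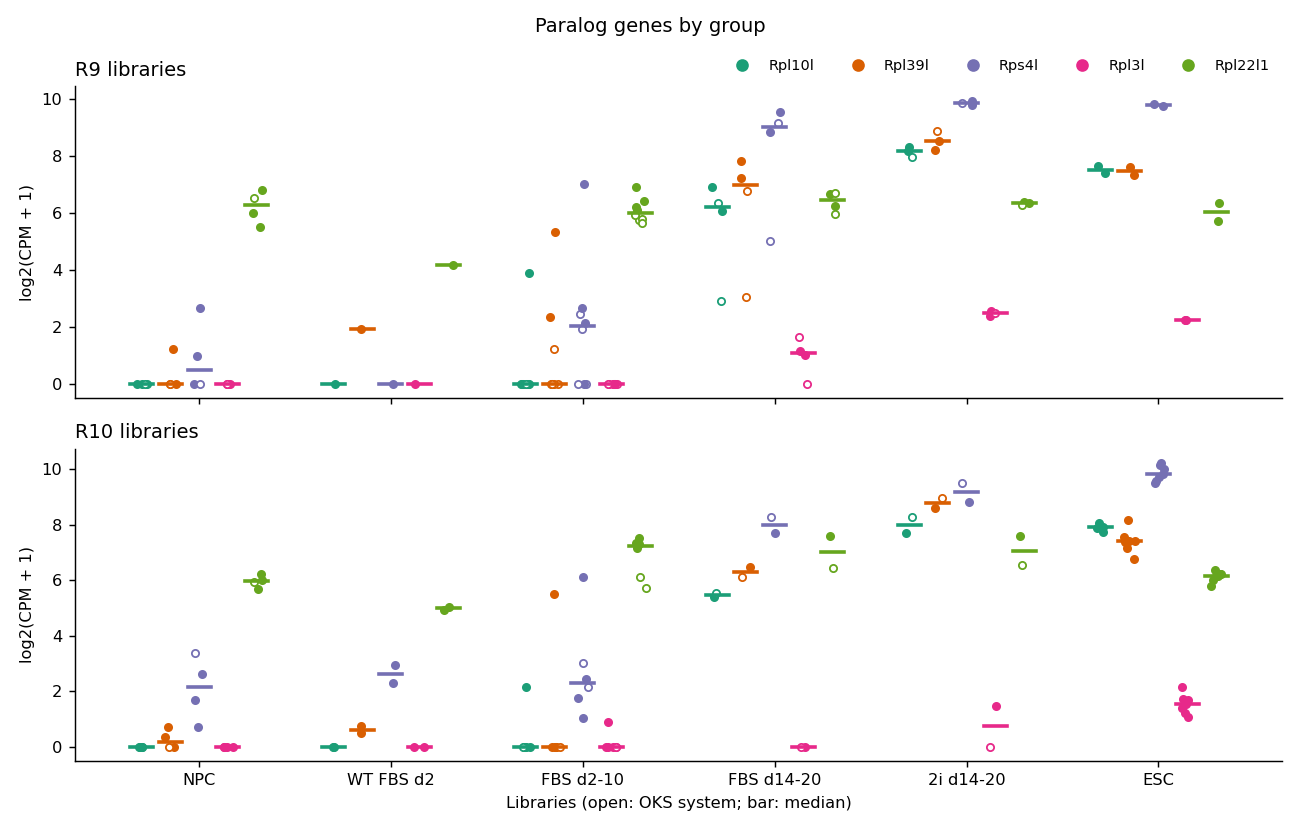
Level as log2(CPM + 1) of Rpl10l, Rpl39l, Rps4l, Rpl3l and Rpl22l1 in every library, by condition, in R9 (top) and R10 (bottom), with open points for OKS and bars at the median. Rpl39l and Rpl10l lie at or near 0 in all NPC libraries and above 100 CPM in every ESC library, while Rpl22l1 does not separate the 2 cell types.

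At the late stage, 2 of those copies were higher in 2i-LIF than in serum in both chemistries. Paired by system and day, 2i-LIF against FBS-LIF + dox gave 3 members of 92 called higher in R9 and 0 lower (limma, Benjamini-Hochberg), against 4.0% and 4.14% of all genes. In R10, 2 of 91 were called higher and 0 lower, against 0.673% and 0.544%. Member medians were -0.03 and 0.04. Rpl10l was at 292, 319 and 251 CPM in 2i-LIF (OKMS day 14, OKMS day 20, OKS day 20) and 66.5, 121 and 81.2 CPM in serum (1.71 ± 0.22, adjusted p = 0.000279, limma). Rpl39l was at 374, 299.9 and 473 CPM against 149, 229 and 108 CPM (1.28 ± 0.27, adjusted p = 0.0108, limma), and Rpl9 was the third (0.96 ± 0.21, adjusted p = 0.011, limma). All 3 pairs moved the same way for Rpl10l and Rpl39l. At day 18 in R10, Rpl10l was at 210 and 310 CPM against 41.5 and 46.1 CPM (2.52 ± 0.31, adjusted p = 0.00633, limma), and Rpl39l at 393 and 499 CPM against 89.0 and 69.1 CPM (2.48 ± 0.30, adjusted p = 0.00596, limma). Rpl39 and Rpl10 did not pass in either chemistry. In R10 the 2 calls were lost at a pseudocount of 0.25, under quantile normalization and without the pair as a block, 0 members in each.

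Reprogrammed cells in 2i-LIF at day 18 were set against the 7 R10 ESC libraries. Here 16 of 93 members rose and 0 fell (limma, Benjamini-Hochberg), against 5.06% and 6.58% of all genes, with a median of 0.23 against -0.09. Members above every ESC library numbered 25 and those below numbered 2, against 10.8% and 13.8% of all genes. By role the 16 that rose were 5 of 31 small-subunit genes, 8 of 43 large-subunit genes, Rplp2 and 2 paralogs. Rplp2 was at 2439 and 1827 CPM against 869 to 1100 CPM in ESCs (1.09 ± 0.15, adjusted p = 0.00132, limma), and Rpl39l at 393 and 499 CPM against 108 to 289 CPM (1.38 ± 0.27, adjusted p = 0.0083, limma). Rpl5, which joins the large subunit together with Rpl11 and 5S RNA, was at 129 and 131 CPM against 42.6 to 74.5 CPM (1.07 ± 0.20, adjusted p = 0.00692, limma). Rpl22l1 passed (0.92 ± 0.24, adjusted p = 0.0264, limma), although its 2 libraries were far apart at 190 and 92.3 CPM. Rpl10l, at 210 and 310 CPM, did not pass (0.09 ± 0.16, adjusted p = 0.742, limma). Rps7 (1.03) and Rpl12 (1.01) were the other large differences (adjusted p = 0.0359 and 0.00965, limma). With edgeR, 7 members passed, against 2.05% of all genes. Without the OKMS library 9 passed, against 9.23%, and without the unnumbered ESC library 27, against 19.0%. Without the numbered R1 library of replicate 2, 10 passed, against 7.56%. Other transcripts under 1000 bases took 71.8 and 72.5% of TPM in the 2i-LIF libraries and 67.3 to 70.6% in ESCs. The mean length of other transcripts was 835 and 844 bases against 884 to 931 bases. The 2i-LIF libraries also held fewer reads than every ESC library, and the part of these features in the differences was not tested.

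Transcript use within genes was tested between R10 ESCs and NPCs on TPM with diffSplice in limma. Of 88 members with at least 2 transcripts, 76 passed, against 62.1% of 8614 genes. Rpl10l, Rpl39l, Rps4l and Rpl3l, of which NPCs hold few or no reads to share out, are among the 88, and without them 73 of 84 passed. Against the unnumbered R1 library alone 5 of 83 members passed, against 7.34% of genes, and in R9 0 of 84, against 5.4%, and on simulated data the test called 10.6% of genes with unchanged shares. Passing together with a transcript share moved by at least 20 points was seen in 29 of the 88 members and in 28 of 84 without those copies. Of all genes tested, 29.7% met both conditions, a share near that of the members. For example, a 284-base transcript of Rpl5 went from 3.01% of the gene's TPM in NPCs to 52.3% in ESCs but was at 8.83% in the unnumbered library, and a 144-base transcript of Rpl32 went from 3.24% to 47.9% and was at 8.60% there. These shares were near the NPC value in the unnumbered library, but other transcripts of Rpl5 were not. Its 2012-base transcript held 42.2% in NPCs, 7.47% in ESCs and 8.10% in the unnumbered library, and 60.7% and 21.5% in R9 NPCs and ESCs. Its 853-base transcript held 37.3% in NPCs, 13.9% in ESCs and 67.6% in the unnumbered library. For Rpl27a, singled out after its values were seen, the unnumbered library lay with the other ESCs. Its 1098-base transcript of 5 exons held 71.6% in NPCs, 34.0% in ESCs and 29.9% in the unnumbered library, and 61.2% and 27.0% in R9 NPCs and ESCs.

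For Rps24 the unnumbered library lay with the other ESCs in the share of the 20-base class but apart from them in others. Rps24 CPM at gene level did not pass between ESCs and NPCs (-0.16 in R10 and 0.04 in R9, adjusted p = 0.217 and 0.811, limma). The use of its single transcripts passed in R10 (59 transcripts, adjusted p = 5.6e-21, limma diffSplice) and did not in R9 (18 transcripts, adjusted p = 0.706, limma diffSplice). The 3′ classes below sum such transcripts and were not tested. Transcripts of the 20-base class made up 95.5% ± 1.24 of Rps24 TPM in R10 NPCs (SD, n = 4; range 94.1 to 97.0) and 60.5% ± 3.11 in ESCs (SD, n = 7; range 55.0 to 63.8), with the unnumbered library at 63.8%. In R9 they made up 84.9 to 90.4% in NPCs and 54.4 and 59.6% in ESCs, so the groups did not overlap in either chemistry. The 36-base class was at 0.927 to 3.06% of TPM in R10 NPCs, 16.7 to 27.7% in the named ESC libraries and 13.3% in the unnumbered one. Direct joining of the outer exons was at 0.62 to 1.46%, 5.98 to 11.2% and 19.2% in the same order. Transcripts in no class, which can hold more than 1 of these exons, were at 0.963 to 1.83%, 5.79 to 9.17% and 1.71%. The 18-base class was small, at 2.44% ± 0.376 in R10 ESCs (SD, n = 7). It leaves out transcripts that also hold another of these exons, so the use of the exon itself was not measured. Of 124 Rps24 transcripts, 47 were in the 20-base class, 8 in the 36-base class and 2 in the 18-base class. A further 27 joined the outer exons directly and 40 fell in no class.

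Reprogramming cultures used the classes in different proportions in the 2 systems, which is described without a test because the classes were looked at by system after their shares were seen. In OKS cells in R9 the 36-base class was at 24.3, 45.9, 52.9, 55.0, 38.2 and 6.11% on days 2, 4, 6, 10, 14 and 20. In OKMS cells it was at 12.7, 6.29, 8.50, 18.7, 14.6 and 7.47%. The class was higher in OKS on days 2 to 14 of R9 and alike at day 20, and the WT day 2 library was at 46.5%. In R10 the 36-base class was at 7.20 and 3.52% in OKMS and 20.3 and 47.1% in OKS on days 2 and 6, and at 10.96 and 21.6% in the WT day 2 libraries, so a single WT library was near OKS. The OKMS library of day 10 in R10 was at 21.6% too, and at day 18 the systems were at 9.31% in OKMS and 19.4% in OKS. The class without an exon ran the other way, at 27.2, 44.8, 17.6, 19.4, 41.4 and 53.7% in OKMS and 1.36, 1.55, 1.61, 1.43, 11.1 and 49.4% in OKS. OKS cells thus lacked this class until day 14, as did WT cells at day 2, at 0.614 to 1.28%. In R10 the same split held, with 19.4, 44.7, 62.9 and 18.3% in OKMS on days 2, 4, 6 and 10 against 0.477 and 1.29% in OKS on days 2 and 6. At day 18 the class without an exon was alike in both, at 24.7 and 24.4%.

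**Figure D5:**
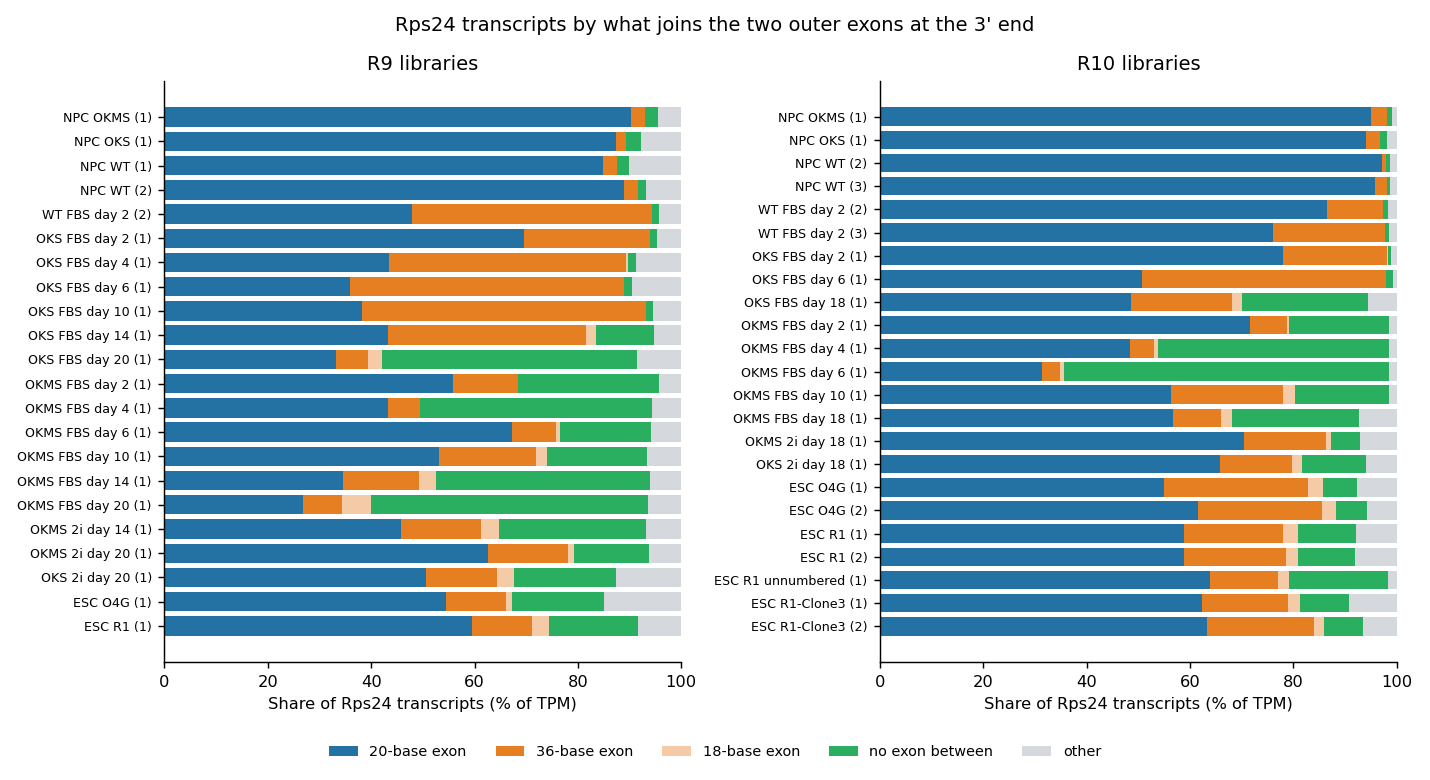
Percent of Rps24 TPM in each 3′ class as stacked horizontal bars, one per library (replicate in brackets), for R9 (left) and R10 (right). NPC bars are filled by the 20-base class (84.9 to 97.0%), OKS bars of days 2 to 10 show the 36-base class and nearly no class without an exon, which OKMS bars of those days hold at 17.6 to 62.9%.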

How the data were processed

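Gene CPM and transcript TPM were deposited by the authors for all libraries, and per the submitters' processing notes minimap2 2.24-r1122 and build mm10 were used. The deposited tables are named after IsoQuant, whose version and settings for assigning reads are not given in the sources used here. Transcript coordinates come from the authors' deposited, filtered transcript annotation. A group of 13 columns of the gene table matched no sample and was not used. Whole reads were recovered from CPM (within 0.02 reads). The members and lists were chosen with earlier results of these data known.

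log2(CPM + 1) was fitted with limma 3.58.1 (R 4.3.3) within each chemistry, with a trend in the prior variance, keeping genes at or above 1 CPM in at least n libraries, n being the size of the smaller group. Passed means an adjusted p under 0.05 over all genes. edgeR 4.0.16 and DESeq2 1.42.0 on recovered reads were alternatives. On simulated data, 97% of 2-fold changes were recovered for ESC minus NPC in R10, 48% in R9, 47% for WT day 2 minus WT NPC and 87% for OKMS minus OKS in R9. The simulation changed only well-expressed genes and gave all genes the same fixed spread between libraries, not taken from these data. These rates check the fitting and do not measure the power of the real comparisons. Named genes were the paralogs with parents, the stalk genes, Rpsa, Rps27a, Rps24, Rpl13a and the 5 largest per direction among those passed. Other genes named with values were chosen after their values were seen, namely Rpl24, Rpl9 and Rpl28, and Rpl13, Rpl37 and Rps7 in comparisons where they were not among those 5. The copies Rps3a3 and Rps12l1 and the single transcripts of Rpl5, Rpl32 and Rpl27a were also named outside that rule. Some genes that this rule names are not reported here. Replicates of a group differed beyond sampling noise, with a mean chi-square per gene of 33.3 in WT day 2 and 11.7 in WT NPCs of R10.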

Additional observations from a re-analysis of the deposited data

Results flagged for a closer look

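In groups of 4 to 10 libraries, 92 member-by-group sets were tested for a library far from the others, and 7 were found, where chance gives about 1 in 20. Of these, 5 were the unnumbered R1 library among the R10 ESCs. It held Rplp1 at 869 CPM against 229 to 305 in the other ESC libraries, Rps27a at 628 against 405 to 493, Rps19bp1 at 215 against 68.2 to 122, Rps2 at 112 against 33.9 to 52.9 and Rpl37rt at 70.6 against 31.4 to 42.6 CPM. The others were Rplp0 in the R10 OKS NPC library at 183 CPM, with the other NPC libraries at 142 to 147, and Rpl39l in a WT NPC library of R9 at 1.34 CPM, which is 1 read, with the others at 0.

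The ESC minus NPC difference was unequal between chemistries for 3 of 92 members, against 3.59% of all genes (limma, R10 minus R9): Rpl37rt by -1.54 ± 0.37 (SE), Rps10 by -0.92 ± 0.24 and Rps4x by -0.97 ± 0.24 on the log2 scale.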

How the results depend on the processing

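Alternatives to the tests are given as counts of members passed. The share of all genes called also changed with the setting, so these counts do not set the members apart from other genes. For example, edgeR over R9 days called 24.8% of all genes, while the main fit called 5.56% as higher and 5.28% as lower. Leaving out 1 library, day or pair gave 47 to 56 for ESC minus NPC in R10, 12 to 31 in R9, 0 to 13 for WT day 2, 0 to 0 for factors at day 2, 0 to 3 for uninduced lines, 0 to 8 and 0 to 5 over days in R9 and R10, 61 to 81 and 0 to 43 for OKMS minus OKS, 1 to 4 for 2i-LIF in R9, 9 to 27 for 2i-LIF cells minus ESC and 66 to 75 for isoforms. The unnumbered R1 library alone gave 19 for ESC minus NPC and 5 for isoforms, and R9 gave 0 for isoforms. Median centring gave 4 for uninduced lines, 22 and 5 over days and 4 for 2i-LIF in R10. Quantile normalization gave 0 for uninduced lines, 4 over days in R9 and 0 for 2i-LIF in R10. edgeR gave 49 and 16 over days, 4 for 2i-LIF in R10 and 7 for 2i-LIF cells minus ESC. DESeq2 gave 2 for factors, 4 for uninduced lines, 25 and 24 over days and 21 for OKMS minus OKS in R10. A linear trend gave 15 over days in R9. A pseudocount of 0.25 and no filter gave 0 and 0 over days in R10, and 0 and 4 for 2i-LIF in R10, where a 5 CPM minimum and totals without members gave 4 each. Without the block for day or pair, OKMS minus OKS in R9 and 2i-LIF in R10 gave 0. Replicate numbers 2 and 3 of the WT day 2 and WT NPC libraries gave a correlation of deviations of 0.474, but 2 pairs show only a shared number, and the replicate block gave 83 members that fell. Signs turned for Rplp1 (0.59), Rpl37rt (0.0885), Rps19bp1 (0.27) and Rps2 (0.46) against the unnumbered library alone, Rps27a over R9 days without day 20 (-0.886, where leaving out any other day gave 1.32), Rpl35 (0.0513) and Rpl23a (0.0191) in the linear trend, and Rpl10 in 2i-LIF cells minus ESC with pseudogene reads added (-0.0586). Of the other settings of named genes, 1299 kept direction and call and 212 lost the call. With arms of 2 libraries, a lone sample left in an arm is assumed to vary like the other group. The cause of each change was not tested, apart from the fewer libraries left. Depth limits Rpl3l, with 44 reads in R10 ESCs.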
